A study of Homo sapiens with 4 samples.

Results

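Long intergenic noncoding RNAs are transcripts without a known long reading frame that lie between protein-coding genes. The LINC names are placeholders of the gene nomenclature for such transcripts whose function was unknown at naming. The group described here holds every probe of the array that measures RNA and whose printed gene name is LINC followed only by digits. It comprised 836 of the 43317 gene names of the array, measured by 1652 of 58201 probes. The rule itself uses no measured value, though it was chosen with earlier results of these data known. Of the names, 386 had 1 probe and 450 had 2 or more, up to 8.

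The samples were the HNSCC lines HN4 and HN30 and their cisplatin-resistant derivatives HN4/DDP and HN30/DDP, labelled HN4_CR and HN30_CR by the submitters. HNSCC is head and neck squamous cell carcinoma, and cisplatin is a platinum drug that crosslinks DNA. The resistant lines were made by a stepwise increase of cisplatin and kept in 20 μM cisplatin, for 48 h by the labels, while the parental lines received none, and all lines shared DMEM with serum. The study asked which genes differ in the resistant cells. Each condition had 1 array, so acquired resistance, the drug in the medium and the array itself cannot be told apart, and no resistant line could be tested against its parent.

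Several LINC names have since been tied to known pathways. LINC01021, now PURPL, is induced by p53 and lowers p53, and LINC00657, now NORAD, responds to DNA damage and binds Pumilio proteins. LINC00473 is a target of CREB, the factor that answers cAMP. LINC01468, now LNCAROD, was named as an activator of DKK1, a secreted Wnt antagonist, and LINC01503 is driven by a squamous super-enhancer. LINC00704 is now MANCR, a transcript of mitotic cells. Names can be outgrown: RefSeq lists 32 of the 836 names as protein coding, 794 as long noncoding and 6 as transcribed pseudogenes, and 4 were not matched.

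A probe here is a DNA strand of 60 bases, and its letters decide which part of a transcript is read. The following probes carry the main observations, given with their place on hg19. The first 7 belong to names that were higher in both resistant lines. For LINC01021, on the plus strand of chromosome 5, they are at chr5:27496356-27496415, chr5:27489409-27489468 and chr5:27485707-27485766, in this order.
LINC01021: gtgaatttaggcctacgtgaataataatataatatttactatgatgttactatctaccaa
LINC01021: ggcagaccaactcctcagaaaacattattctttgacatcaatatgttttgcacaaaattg
LINC01021: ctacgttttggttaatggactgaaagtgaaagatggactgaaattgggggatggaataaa
The LINC00659 probes, 80 bases apart by their starts, lie on the minus strand at chr20:61405708-61405767 and chr20:61405788-61405847.
LINC00659: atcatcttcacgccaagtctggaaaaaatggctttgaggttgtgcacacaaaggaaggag
LINC00659: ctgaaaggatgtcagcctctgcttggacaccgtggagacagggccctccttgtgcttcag
The LINC00882 probes lie on the minus strand at chr3:106828684-106828743 and chr3:106828781-106828840.
LINC00882: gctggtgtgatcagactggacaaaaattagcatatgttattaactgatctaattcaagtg
LINC00882: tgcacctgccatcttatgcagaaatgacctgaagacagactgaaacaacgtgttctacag

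LINC01468 was lower in both resistant lines. Its 3 probes lie on the minus strand at chr10:54211074-54211133, chr10:54210873-54210932 and chr10:54210868-54210927. The last 2 share 55 bases, in capitals, so they are nearly 1 measurement.
LINC01468: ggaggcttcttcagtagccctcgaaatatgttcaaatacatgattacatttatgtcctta
LINC01468: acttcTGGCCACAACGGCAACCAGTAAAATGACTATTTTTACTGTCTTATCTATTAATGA
LINC01468: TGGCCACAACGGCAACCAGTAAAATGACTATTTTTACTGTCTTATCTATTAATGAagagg
LINC00704 was lower in HN30/DDP, and 2 of its probes lie on the minus strand at chr10:4693325-4693384 and chr10:4692377-4692436.
LINC00704: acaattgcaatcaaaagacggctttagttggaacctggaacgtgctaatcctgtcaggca
LINC00704: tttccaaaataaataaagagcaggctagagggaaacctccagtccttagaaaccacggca
The LINC00472 probe that went opposite ways in the 2 lines lies on the minus strand at chr6:72124027-72124086.
LINC00472: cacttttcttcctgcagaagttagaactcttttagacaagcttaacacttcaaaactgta

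The share of LINC probes detected was near that of the other probes without a coding accession, with 95% intervals that overlapped on every array but HN30, and below that of coding probes. A probe was counted as detected where the scanner software marked it well above background. This held for 37.9% of LINC probes on HN4, with a 95% Wilson interval of 35.6% to 40.3% that covers counting error only. The share was 40.1% on HN4/DDP (37.7% to 42.5%), 34.9% on HN30 (32.7% to 37.3%) and 46.0% on HN30/DDP (43.6% to 48.4%). The HN30/DDP array had the highest share, which describes single arrays and not conditions. The same array was the highest for all probes, at 62.1% against 53.4% on HN30. Among probes with a coding (NM) accession, detection ran from 73.7% to 79.8%, and among the remaining probes from 38.0% to 48.6%.

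**Figure D1:**
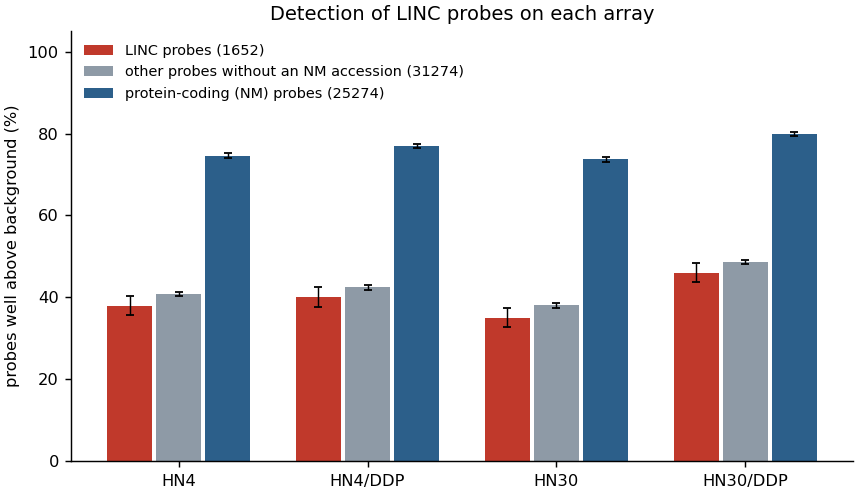
Percent of probes well above background (y axis) on each of the 4 arrays (x axis), for LINC probes, other probes and protein-coding probes. Bars are shares and whiskers are 95% Wilson intervals; LINC bars run from 34.9% to 46.0% and stand near the other probes without a coding (NM) accession, with overlapping whiskers except on HN30, and below coding probes at 73.7% or more.

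Of all 58183 probes with a value on every array, 28717 were well above background on all 4 arrays. Of the LINC probes, 491 were well above background on all 4 arrays and 797 on none. By name, 330 of 836 had a probe detected on every array and 321 had none on any. In the HN30 pair, 217 probes were detected in HN30/DDP but not in HN30 and 34 the other way round. In the HN4 pair these numbers were 106 and 70. The share of all probes detected was also higher on the resistant array in each pair. It was 62.1% against 53.4% in the HN30 pair and 57.3% against 55.4% in the HN4 pair. The median GC content of the probes was 43.3% in the LINC, coding and other classes alike. It was 40% among LINC probes detected nowhere and 45% among those detected everywhere, so detection moved with base composition, whose part was not tested. Of the squamous markers KRT5, KRT14, KRT6A, KRT17, TP63 and SFN, all 6 were detected on HN4, HN4/DDP and HN30 and 5 on HN30/DDP. Of 5 fibroblast markers only COL1A1 was detected. Of the blood markers, PTPRC and CD14 were detected on all 4 arrays and CD3E on HN30/DDP alone. Of 3 endothelial markers 2 or 3 were detected on each array. Several markers differed between the arrays. Of the 7 squamous marker probes 4 were higher and 1 lower in HN4/DDP, with a median difference of 2.33, and 1 was higher and 1 lower in HN30/DDP, with a median of -0.06 over the 5 detected on both arrays. KRT5 had levels of 2.79 and -1.26 in the HN4 pair and 2.84 and 0.91 in the HN30 pair, parental line first, KRT6A -2.97, 0.35, 2.57 and -5.87, KRT14 -2.68, -0.35, 0.17 and 0.39, and KRT17 -1.78, 1.51, 0.54 and 0.73. TP63 had -0.77, -1.59, -0.81 and -0.87, and SFN 6.98, 7.13, 6.93 and 5.97. Among the markers of other cell types, COL1A1 had -1.85, -0.13, -3.15 and -0.72, and CD14 2.63, 3.19, 1.82 and 5.30. PECAM1 had -3.96, -6.84, -5.02 and -3.91, and VWF -4.74, -2.32, -4.59 and -3.11. CDH5 had -2.68, -3.30, -2.80 and -3.39, and PTPRC -2.84, -2.94, -3.10 and -2.94. Of the 7 endothelial marker probes 1 was higher and 2 lower in HN4/DDP, and 1 was higher in HN30/DDP. COL1A2, COL3A1, DCN and LUM were detected on no array. The part of these cell types in the results below was not tested.

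The 8 highest LINC probes differed by less than 1 log2 between a resistant line and its parent. They partly came from names that code for small proteins. LINC01356 had levels of 6.95 and 6.67 in the HN4 pair and of 7.06 and 6.84 in the HN30 pair, where a level is the log2 signal minus the 75th percentile of the array. In each pair the parental line is given first. LINC00493, now SMIM26, a small membrane protein, had 6.34, 6.36, 6.25 and 6.31 in the same order. LINC00116, now MTLN or mitoregulin, a mitochondrial microprotein, had 5.05, 5.35, 5.36 and 4.89. LINC01420, now NBDY, a microprotein of mRNA decapping bodies, had 4.40, 4.64, 4.44 and 4.18. These 4 probes stayed within 0.5 log2 between a resistant line and its parent. A second LINC00116 probe had far lower levels, -4.60, -4.60, -4.06 and -4.42 in the same order. The others among the 8 highest were LINC00152, or CYTOR, 2 of 3 probes of LINC00504 and 1 of 6 of LINC00869, with differences from -0.85 to 0.78. Signals of different probes are not amounts that can be compared, since each probe binds with its own strength.

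In HN4/DDP, 37 of 1652 LINC probes were higher and 21 lower than in HN4. Higher means a log2 difference above 2 with detection on the resistant array. Lower means a difference below -2 with detection on the parental array. The shares of 2.24% and 1.27% stood beside 2.22% and 1.32% of all non-control probes. Detection on the dimmer array failed for 29 of the 37 and 14 of the 21, and probes detected on both arrays gave 8 and 7. Over all probes, 471 of the 1294 higher and 352 of the 769 lower were detected on both arrays. With normexp background correction the LINC counts were 5 and 8, beside 306 and 204 among all 58197 probes. The share of higher calls among all calls, 63.8%, was 38.5% with normexp background correction and 53.3% over probes detected on both arrays, and over all probes it was 62.7%, 60% and 57.2%. Over the 556 LINC probes detected on both arrays the median difference was -0.09, and over all such probes it was also -0.09.

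In HN30/DDP, 104 of 1651 LINC probes were higher and 20 lower than in HN30, or 6.30% and 1.21%. Of all non-control probes 5.53% were higher and 1.85% lower. With normexp background correction the LINC counts were 14 and 7, beside 674 and 494 among all 58187 probes. Higher calls were then a smaller share of LINC probes than of all probes. The 104 probes belonged to 77 names, and 60 of the probes were not detected on HN30. Both arrays detected 44 of the 104, beside 1315 of the 3218 higher among all probes. The median over the 543 LINC probes detected on both arrays was 0.14, while it was -0.19 over coding probes and -0.06 over all probes. The other probes without a coding accession were nearer, with a median of 0.08, 5.42% higher and 1.24% lower. The sign of the LINC median depended on the scaling, since it was -0.14 with quantile normalization and -0.26 with median centring, where the median of all probes was -0.18 and -0.46. With normexp the LINC median was 0.01 and that of all probes -0.09. Higher calls were 83.9% of LINC calls, 73.3% with median centring and 66.7% with normexp, where over all probes they were 74.9%, 51.4% and 57.7%. The error of a single difference from the scanner's own estimate was 0.23 in the median of LINC probes in either line, and it leaves out all variation between cultures.

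The only replicated contrast was both resistant against both parental arrays, for which limma was used with a block for cell line and 1 residual degree of freedom. Of 38652 probes detected on at least 1 array, 0 (0%) passed an adjusted p of 0.05, the smallest adjusted p was 0.315, and 3490 had an unadjusted p under 0.05. Among the 854 LINC probes in that fit 0 passed and 92 had an unadjusted p under 0.05, or 10.8% against 9.03% of all. The first LINC00659 probe and 1 LINC01468 probe shared the smallest adjusted p, 0.315 by limma.

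Past the threshold in both lines, 14 LINC probes of 10 names were higher and 4 probes of 2 names lower. Those are 0.848% and 0.242% of the 1651 LINC probes with both differences, beside 0.724% and 0.0911% of all non-control probes. The names higher in both were LINC01021, LINC00659, LINC00882, LINC00173, LINC00664, LINC00871, LINC00950, LINC01032, LINC01136 and LINC01395. LINC01468 and LINC01540 were the names lower in both. Among the 14 probes, the 2 of LINC00659 and the 2 of LINC00882 were detected on all 4 arrays. With dim signals set to the lowest level detected on that array, or the own level of the probe if higher, 7 probes stayed higher in both lines, 3 of LINC01021 and these 4, and 3 stayed lower in both, those of LINC01468. With normexp background correction 2 were higher in both, 1 each of LINC01021 and LINC00659, and 2 lower, both of LINC01468. With a pseudocount of 16, 3 were higher and 3 lower. Over the 491 LINC probes detected on all arrays the differences of the 2 lines had a Pearson r of 0.33 and a Spearman rho of 0.30, and 59.1% had the same sign. Over all 28717 such probes these values were 0.29, 0.24 and 58.4%. They describe probes, which are not independent, and the 2 resistant arrays share the drug.

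**Figure D2:**
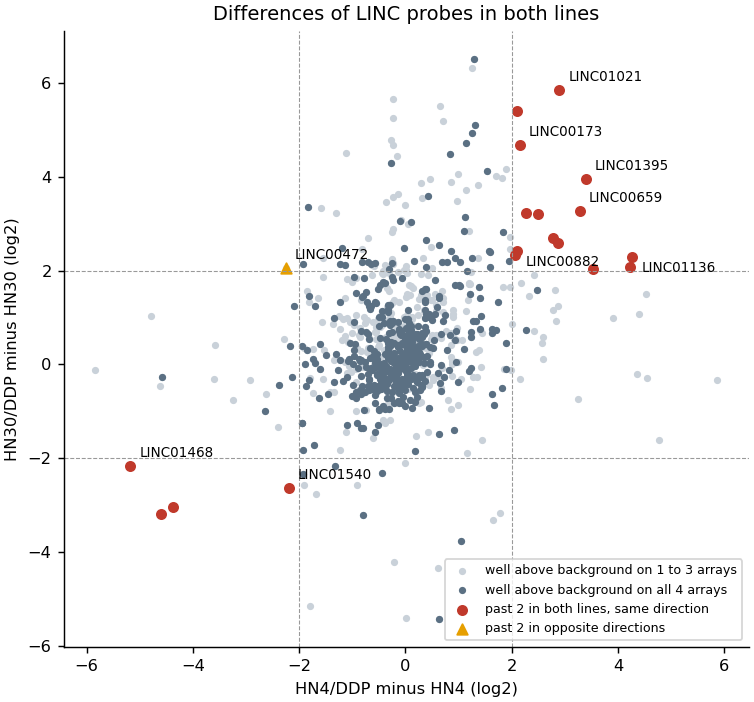
Log2 difference of each LINC probe in HN4/DDP (x axis) and in HN30/DDP (y axis), for probes well above background on at least 1 array. Dashed lines mark 2 and -2; the 14 red points at the upper right and 4 at the lower left were past the threshold in both lines, and LINC00472 (triangle) was past it in opposite directions.

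LINC01021 had positive differences on all 6 of its probes in both resistant lines. Its probe at chr5:27496356-27496415 had levels of -3.13 and -0.24 in the HN4 pair and of -5.52 and 0.34 in the HN30 pair. The 2 resistant arrays were thus close to each other, while the parental arrays were apart and HN30 was not above background. The difference was 2.89 ± 0.225 (scanner SD) in HN4/DDP, or 7.43-fold, and in HN30/DDP the signal was at least 31.2-fold higher. This bound sets the bright level against the higher of the probe's own dim level and the lowest detected level of that array. The probe at chr5:27489409-27489468 was at -1.99, 0.11, -5.44 and -0.05 in the same order, and the one at chr5:27485707-27485766 at 0.21, 1.47, -4.23 and 0.70. Over the 6 probes the difference ran from 0.99 to 2.89 in HN4/DDP, with 3 past the threshold, and all 6 were past it in HN30/DDP, where the 2 detected on both arrays gave 3.14 and 4.93. On every probe HN4 had a higher level than HN30. The limma difference of the first probe was 4.38 with SE 0.768 and adjusted p = 0.388.

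The RefSeq promoter of PURPL, from 250 bases before to 50 after its start, is shown because it holds 2 p53 half-sites side by side, in capitals. They begin at position -127 relative to the start. The window is chr5:27472042-27472341, plus strand, of GRCh38.p14.
PURPL: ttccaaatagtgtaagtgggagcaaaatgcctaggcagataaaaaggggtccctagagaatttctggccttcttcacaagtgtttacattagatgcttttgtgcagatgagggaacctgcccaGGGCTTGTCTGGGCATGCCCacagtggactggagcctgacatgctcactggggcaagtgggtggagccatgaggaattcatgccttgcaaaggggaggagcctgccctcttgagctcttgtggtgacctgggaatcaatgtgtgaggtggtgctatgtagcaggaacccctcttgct
Both strands were searched for the half-site of p53. A half-site was present in 6.63% of 35116 promoters in the table and in 6.24% of 657 promoters of LINC names. A pair side by side was present in 6 of all promoters (0.0171%) and in 1 of the LINC promoters, the one shown. Of the 11 promoters of names higher in both lines 1 had a half-site, again that of PURPL. For names lower in HN4/DDP it was in 2 of 17 promoters. For those lower in HN30/DDP it was in 3 of 12, with MANCR among them. For names higher in HN4/DDP it was in 1 of 20, and for those higher in HN30/DDP in 5 of 64. The cAMP response element TGACGTCA was in 1.85% of all promoters, in 1.07% of LINC promoters and in none of the 11, or of the 3 promoters of the names lower in both. A match of letters is no proof of binding.

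LINC00659 had differences of similar size on its 2 probes and in both lines. The first probe had levels of -2.45 and 0.83 in the HN4 pair and of -3.23 and 0.04 in the HN30 pair, all well above background. The second had -2.47, 0.40, -2.98 and -0.39. Both resistant arrays lay above both parental arrays on each probe. The differences were 3.28 ± 0.214 and 2.87 ± 0.214 (scanner SD) in HN4/DDP and 3.28 ± 0.234 and 2.59 ± 0.226 in HN30/DDP, or 6.01-fold to 9.72-fold. In limma the first probe had a difference of 3.28, SE 0.364 and adjusted p = 0.315.

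LINC00882 had 6 probes, of which 5 had positive differences in both lines and 2 were past the threshold in both. The probe at chr3:106828684-106828743 had levels of -2.28 and -0.19 in the HN4 pair and of -2.20 and 0.21 in the HN30 pair, without overlap between resistant and parental arrays. Its neighbour at chr3:106828781-106828840 had -2.09, -0.03, -2.09 and 0.23. The 5 probes gave differences of 1.74 to 2.47 in HN4/DDP and of 1.33 to 2.41 in HN30/DDP. The sixth probe lies 271157 bases from the next one by their starts, belongs to another Ensembl transcript, was not above background in the HN4 pair and gave -0.94 in HN30/DDP.

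Dim probes made up most of the other names higher in both lines. LINC01395 had levels of -6.98, -3.59, -6.90 and -2.96, in the order of the 2 pairs. It was detected on the resistant arrays only, and had bounds of 2.25-fold in HN4/DDP and 3.18-fold in the other line. LINC01136, now BTG2-DT, is named as the divergent transcript of BTG2, a p53-induced antiproliferative gene. One of its probes had -7.08, -2.81, -6.27 and -3.99, with bounds of 3.88-fold and 1.55-fold, and the other -4.12, -3.36, -5.15 and -4.43. The probes of LINC00871, LINC01032 and LINC00664 that passed in both lines had bounds from 1.24-fold to 2.40-fold. A further LINC01032 probe, not above background on either array of the HN4 pair, gave a bound of 2.94-fold in HN30/DDP. For LINC00664 in HN30/DDP no bound above 1 could be given. LINC00950, which RefSeq now counts to TMEM8B, was at least 4.07-fold higher in HN4/DDP on 1 probe, for which HN30/DDP gave no bound above 1, and at least 37.5-fold higher in HN30/DDP on the other. LINC00664 and LINC00950 lay outside the naming rule and were chosen after their values were seen.

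**Figure D3:**
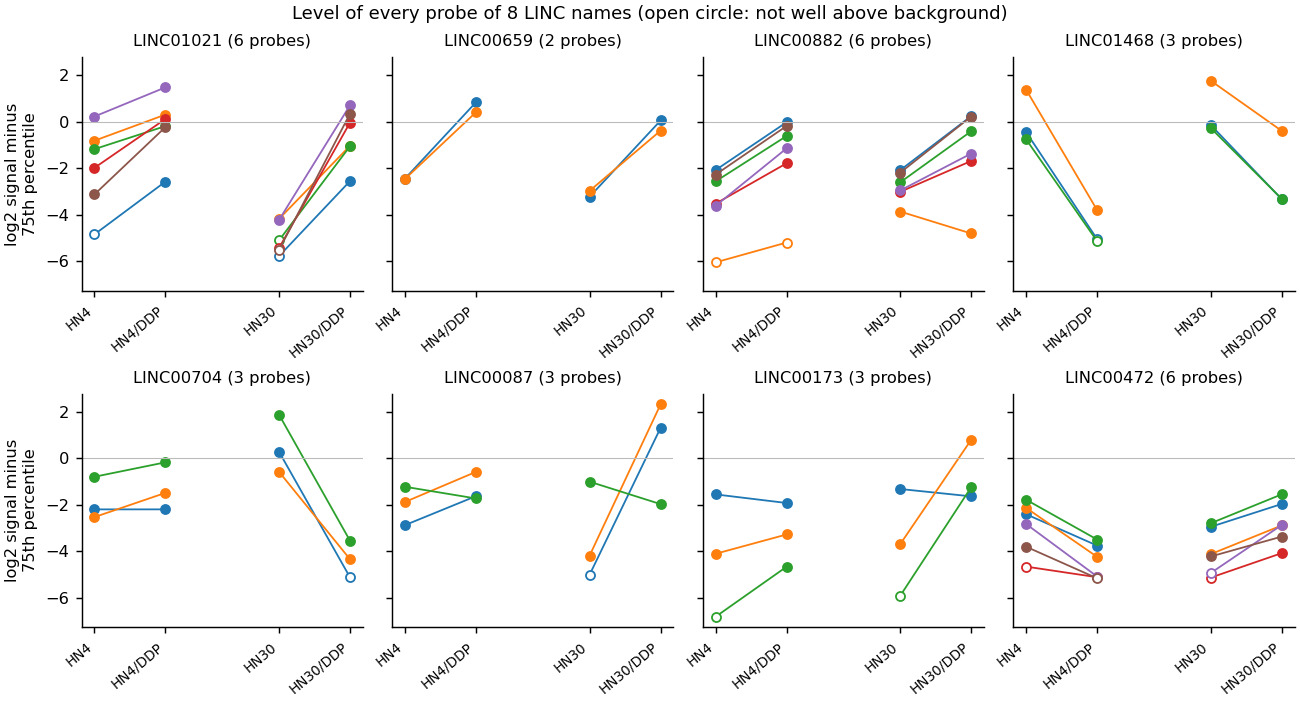
Level of every probe (log2 signal minus the 75th percentile of the array, y axis) of 8 LINC names on the 4 arrays (x axis), with a line joining each parental array to its resistant array. Open circles were not well above background; all 6 LINC01021 lines go up, all 3 LINC01468 lines go down, and single probes of LINC00882, LINC00087 and LINC00173 part from the rest.

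LINC01468 was lower on all 3 probes in both lines. The probe at chr10:54211074-54211133 had levels of 1.36 and -3.81 in the HN4 pair and of 1.75 and -0.40 in the HN30 pair. Both parental arrays lay above both resistant arrays, and HN4/DDP was the lowest. The difference was -5.17 ± 0.241 in HN4/DDP (scanner SD, 36.1-fold lower) and -2.16 ± 0.204 in HN30/DDP (4.46-fold lower). The overlapping pair gave -4.60 and -4.38 in HN4/DDP, where it was at least 23.1-fold and 18.6-fold lower, and -3.19 and -3.05 in HN30/DDP. LINC01540, now GAPLINC, had 3 probes, 2 of which start 11 bases apart. The one detected on all 4 arrays gave -1.94 in HN4/DDP and -1.24 in HN30/DDP. The probe past the threshold in both lines had levels of -2.91, -5.10, -3.69 and -6.33, with neither resistant array above background. It was at least 4.24-fold lower in HN4/DDP and at least 2.38-fold lower in HN30/DDP, and the second bound lies within the threshold. The last probe had bounds of 1.90-fold and 1.38-fold.

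LINC00704 separated the 2 lines. Its probe at chr10:4693325-4693384 had levels of -0.80 and -0.18 in the HN4 pair and of 1.86 and -3.55 in the HN30 pair. HN30 was the highest array and HN30/DDP the lowest. The 3 probes gave differences of 0.00 to 1.04 in HN4/DDP and of -5.42 to -3.76 in HN30/DDP. Detected on both arrays, the probe just named was 42.8-fold lower in HN30/DDP, and the one at chr10:4692377-4692436 was at least 37.1-fold lower.

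LINC00472 had negative differences in HN4/DDP and positive ones in HN30/DDP on all 6 probes, of which 1 was past the threshold in both lines, each time against an array not above background. The probe shown above had levels of -2.84 and -5.09 in the HN4 pair and of -4.94 and -2.87 in the HN30 pair. HN4 and HN30/DDP were thus alike and above background, and the other 2 arrays were not above it. It was at least 4.45-fold lower in HN4/DDP and at least 3.37-fold higher in HN30/DDP, and the second bound lies below the threshold. The 3 probes detected on all 4 arrays gave -2.10 to -1.35 in HN4/DDP and 0.98 to 1.24 in HN30/DDP.

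LINC00087, on the X chromosome and like LINC00086 among the 4 names not matched in RefSeq, had the widest range between probes detected on both arrays of a pair, 7.47 in HN30/DDP. The following pair, at chrX:134229057-134229116 and chrX:134229158-134229217 on the minus strand, was higher in HN30/DDP.
LINC00087: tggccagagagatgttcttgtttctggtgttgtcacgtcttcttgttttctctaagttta
LINC00087: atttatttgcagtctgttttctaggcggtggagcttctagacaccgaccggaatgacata
The remaining probe, at chrX:134232439-134232498 on the minus strand, is nearly the probe of another name, LINC00086, at chrX:134556222-134556281 on the plus strand. Capitals mark the bases that differ.
LINC00087: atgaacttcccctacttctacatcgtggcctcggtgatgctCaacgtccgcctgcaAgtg
LINC00086: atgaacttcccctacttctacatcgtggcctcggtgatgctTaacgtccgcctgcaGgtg
From the 5′ end of the LINC00087 probe they differ by C42T and A57G, and the 41 bases before the first of these are shared. The first probe had levels of -1.88 and -0.59 in the HN4 pair and of -4.19 and 2.31 in the HN30 pair, so HN30/DDP was the highest and HN30 the lowest array, with a difference of 6.50 ± 0.3 (scanner SD). The second had -2.88, -1.63, -5.01 and 1.30 and was at least 61.0-fold higher in HN30/DDP. The near-identical pair gave -0.96 for LINC00087 and -0.43 for LINC00086 in HN30/DDP. A further LINC00086 probe, named after its value was seen, gave 3.04 there. The probes of the near-identical pair could bind either transcript, so their values are uncertain as values of 1 name.

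LINC00173 also split by probe. Its 3 probes lie on the plus strand at chr12:116972087-116972146, chr12:116973091-116973150 and chr12:116974257-116974316, and belong to 2 RefSeq transcripts, of which the last probe reads its own.
LINC00173: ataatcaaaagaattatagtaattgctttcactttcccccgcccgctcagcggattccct
LINC00173: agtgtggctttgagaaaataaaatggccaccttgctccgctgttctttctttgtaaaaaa
LINC00173: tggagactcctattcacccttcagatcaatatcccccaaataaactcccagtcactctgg
The first stayed at -1.56, -1.93, -1.33 and -1.64 in HN4, HN4/DDP, HN30 and HN30/DDP. The second was at -4.11, -3.28, -3.70 and 0.79, and the third at -6.82, -4.67, -5.92 and -1.25. HN30/DDP was the highest array on the last 2, with a difference of 4.49 ± 0.255 (scanner SD) on the second probe and a bound of 10.4-fold on the third. In HN4/DDP the bound of the third was 1.07-fold. LINC00408 and LINC01220 were the other names with the widest range by that measure. LINC00408 gave -4.58 and 0.47 in HN4/DDP. In HN30/DDP the first of its probes gave -0.27 and the other was at least 5.38-fold higher, with HN30 not above background. The range of LINC01220 in HN30/DDP was -1.36 to 2.82.

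Probes of 1 LINC name fell on the same side of 0 less often than probes of 1 coding gene, a description with no test. All probes of a name lay on the same side of 0 in 241 of 450 LINC names in HN4/DDP (53.6%) and in 195 of 449 in HN30/DDP (43.4%), against 69.8% of coding names in either line. Among probes detected on both arrays the LINC shares were 61.9% and 58.1% and the coding shares 75.1% and 75.9%. There the range between probes of a name exceeded 2 in 7 of 118 LINC names in HN4/DDP and 17 of 117 in HN30/DDP (5.93% and 14.5%), against 1.38% and 4.97% of coding names. LINC names in this count had more probes each, 2.81 in the mean of HN4/DDP against 2.25 for coding names. Over names with exactly 2 probes, a choice made after seeing the data, the LINC shares were 63.9% and 55.4% and the coding shares 73.8% and 74.1%. LINC probes were less often detected than coding ones and can read different transcripts of a locus, and the part of either was not tested. Of names with a probe higher in HN30/DDP and more than 1 probe, 5 of 50 had every probe past the threshold and 29 of 50 had every probe above 0. In HN4/DDP these numbers were 2 and 13 of 25.

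**Figure D4:**
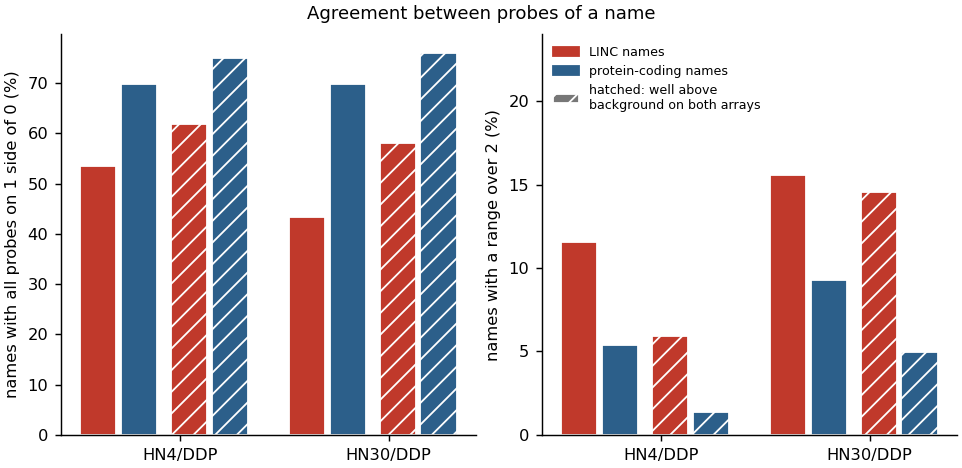
Left, percent of names whose probes all lie on 1 side of 0; right, percent whose probes range over more than 2 log2; for LINC and coding names in each resistant line. Plain bars use every probe and hatched bars those well above background on both arrays; LINC bars are lower at the left and higher at the right in each pairing.

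The LINC names known from squamous and other carcinomas passed the threshold in single members. All 19 names of this list were on the array with 61 probes. In HN4/DDP 2 probes were higher and 1 lower, beside 2.22% and 1.32% of all probes. In HN30/DDP 5 were higher and 2 lower, beside 5.53% and 1.85%. The list was chosen with results of these data known. Its median difference over detected probes was 0.24 in HN4/DDP and 0.09 in HN30/DDP, where all probes had -0.09 and -0.06.

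LINC00958 was higher on 1 of 3 probes in HN4/DDP, with differences of 1.63 to 2.27 there and -0.64 to 0.74 in HN30/DDP. Its probe with the highest level had levels of 3.53 and 5.16 in the HN4 pair and of 4.34 and 3.70 in the HN30 pair. LINC01503 was higher on 2 of 4 probes in HN30/DDP, with differences of 1.66 to 4.28 there and -0.28 to 1.03 in HN4/DDP. LINC01133 gave 1.16 and 1.81 in HN4/DDP and 1.99 and 3.97 in HN30/DDP, the last with HN30 below background and a bound of 3.15-fold. LINC00941 was lower past the threshold on 1 of 4 probes in HN30/DDP (-3.22), the others giving -1.36 to -0.25. LINC00668 was split in HN30/DDP, with 1 probe at 2.39 and another at least 6.14-fold lower and not above background there. LINC00319 was detected in HN30/DDP only, at least 4.65-fold above HN30. LINC00520 gave a bound of 4.21-fold in HN4/DDP on 1 probe and 0.83 and 1.40 on the 2 detected on both arrays, and 1 of 4 LINC00673 probes was lower there, at -2.13.

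Other members of the list stayed within the threshold. LINC00152 gave 0.20 and 0.37, LINC00460 -0.70 to -0.60 in HN4/DDP and -0.53 to 0.11 in HN30/DDP, and LINC00467, on 2 probes, 1.24 and 1.27 in HN4/DDP. LINC01116 was detected mostly in the HN4 pair. Of its 5 probes 4 were detected on HN4 and 5 on HN4/DDP, none on HN30 and 1 on HN30/DDP, and the difference in HN4/DDP was 1.22 to 1.33 on the 4 detected on both arrays.

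In the list of p53, DNA damage and CREB names, LINC01021 and LINC00472 held every call. LINC00657 (NORAD) had levels of 1.44 and 1.07 in the HN4 pair and of 1.37 and 1.06 in the HN30 pair, and its differences of -0.38 and -0.31 were within 2 scanner SD. The CREB target LINC00473 was not well above background on any array with any of its 3 probes. Of the microRNA hosts, LINC00478 had no probe of that name, and LINC00461 and LINC00599, hosts of miR-9 and miR-124 loci of nervous tissue, had no call. Among 8 names known from other tissues, 5 were detected on HN30/DDP and 1 was higher, LINC00926, with levels of -0.89, -2.02, -1.41 and 0.72 in HN4, HN4/DDP, HN30 and HN30/DDP. That is 1 of 17 probes, beside the 5.53% of all probes higher there.

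Further large differences came from single probes of other names. LINC01556 had levels of -1.82 and -0.50 in the HN4 pair and of -3.69 and 1.41 in the HN30 pair, a difference of 5.10 ± 0.256 (scanner SD) in HN30/DDP. LINC00663 gave 4.71 on 1 probe in HN30/DDP, while its other probe gave 1.50 with HN30 below background. On the lower side in HN4/DDP were LINC00525 (-2.64), LINC01389 (-2.39, with -1.46 on its other probe) and LINC01000 (-2.18 on 1 of 3 probes). In HN30/DDP it was LINC00476 (-2.33 on 1 of 4 probes), and the same probe gave -1.93 in HN4/DDP, just within the threshold.

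The nearest coding gene was past the threshold in the same direction beside 3 of the LINC names past it in both lines. LINC01468 lies 134 kb from DKK1, which had levels of 3.20 and -1.49 in the HN4 pair and of 3.77 and 0.50 in the HN30 pair. The differences of DKK1 were -4.69 ± 0.206 and -3.27 ± 0.204 (scanner SD), read on the same arrays as LINC01468. LINC00659 lies 11.9 kb from NTSR1, the neurotensin receptor, which had -2.33, 0.16, -4.53 and -0.34 and was higher by 2.49 and 4.19. LINC01136 lies 8.81 kb from BTG2, which had 0.59, 3.33, 0.24 and 2.72 and was higher by 2.74 and 2.48. Of the other names that passed the threshold in both lines, LINC01021 and LINC00882 had no coding probe within 250 kb. For LINC00950 the nearest coding probe was one of TMEM8B (0.76 and 2.54). As RefSeq now counts LINC00950 to TMEM8B, this is the same gene and not a neighbour. The nearest coding genes of LINC00173, LINC00664, LINC00871, LINC01032, LINC01395 and LINC01540 were within the threshold, from -1.60 to 0.58.

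**Figure D5:**
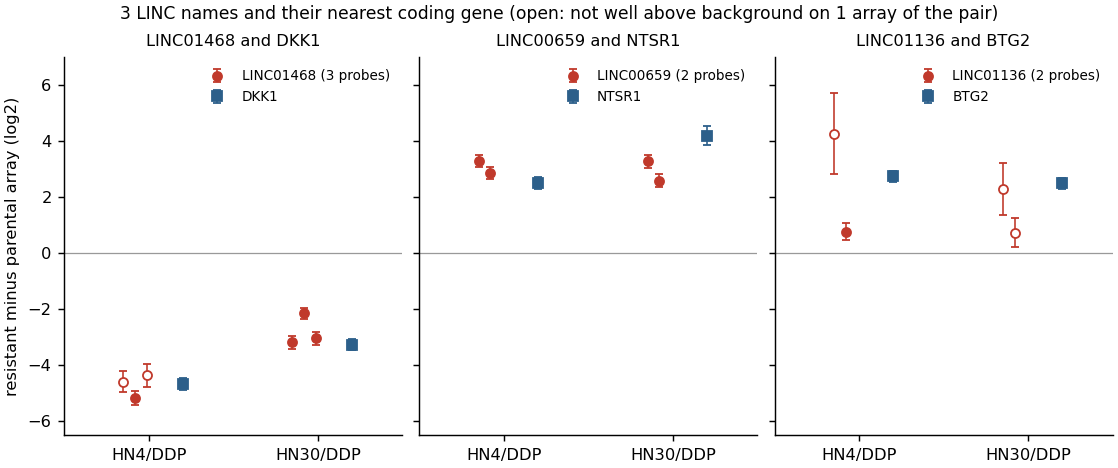
Log2 difference of a resistant from its parental array (y axis) in HN4/DDP and HN30/DDP (x axis) for every probe of LINC01468, LINC00659 and LINC01136 (circles) and for the nearest coding gene (squares), with the scanner SD as whiskers. Open circles had 1 array of the pair not well above background; DKK1 is low with LINC01468, and NTSR1 and BTG2 are high with LINC00659 and LINC01136.

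Over all detected pairs the neighbours of LINC names were set beside those of coding genes, without a test between them. Within 100 kb, 298 LINC probes had a coding neighbour detected on both arrays in the HN4 pair, and 58.7% of these pairs moved in the same direction, with a Pearson r of 0.22. For coding probes and the nearest coding probe of another gene the values were 56.8% and 0.22. In the HN30 pair, 295 LINC probes gave 50.2% and 0.11, and coding probes 53.6% and 0.08. Within 50 kb in the HN30 pair the order was the other way, with 58.0% of 174 LINC pairs and 53.4% of coding pairs. These numbers describe pairs read on the same 2 arrays, and several probes of a name share a neighbour.

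Against HN4, 10 LINC probes were higher in HN30 and 34 lower by the same rule, or 0.605% and 2.06%. Of all non-control probes 0.517% were higher and 1.11% lower. Among the lower ones were 5 of 6 LINC01021 probes and 4 of 5 LINC01116 probes.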

How the data were processed

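The deposited data were 4 one-colour Agilent expression arrays, 1 per condition. The authors deposited scanner output of Feature Extraction 10.7.1.1, with a processed intensity, its error and flags for each spot and probe positions on hg19. A second deposited table, of log2 values, had identical quantiles on every array; its earlier steps are not given in the sources used here.

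Non-control spots (60901 per array) were used, outlier spots were left out, and the log2 intensity minus the 75th percentile of the array was taken. Every probe was kept, and 1 LINC probe had no value on HN30/DDP. The lowest detected level was -4.76 and -4.99 in the HN4 pair and -4.63 and -4.94 in the HN30 pair, parental line first. The number of arrays limits the precision. The fit by limma 3.58.1 under R 4.3.3 (trended eBayes, Benjamini-Hochberg adjustment) and the counting were tested on simulated data. Python 3.11.15 with pandas 2.3.3 and numpy 2.4.6 did the rest.

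Names were matched to RefSeq (GRCh38.p14, names only) for 1290 probes by accession, 273 by symbol and 82 by synonym, with 7 unmatched. Of the LINC probes, 41 shared a run of 20 bases with a probe of another name. Probes named in the text were the list members, the 8 with the highest mean level, the 6 largest differences each way per line among probes detected on both arrays, up to 10 past the threshold in both lines each way, and the 4 names with the widest range over probes detected on both arrays. Further probes of these names were added after their values were seen, among them 2 printed probes of LINC00882 and 1 each of LINC00704 and LINC00086. Members and lists were chosen with earlier results of these data known. One blood marker is not reported here. Alternatives were the background correction, normalization, centring, a pseudocount, bounds for dim signals, detection on both arrays, a threshold of 1, 1 probe per name, and the deposited log2 table.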

Additional observations from a re-analysis of the deposited data

Results flagged for a closer look

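LINC00472 held the 1 LINC probe past the threshold in opposite directions in the 2 lines, with a difference of -2.26 in HN4/DDP and 2.06 in HN30/DDP. Each value is against an array not above background, with bounds of 4.45-fold and 3.37-fold, so at its bound the second is within the threshold. That contrast between lines was not tested, as no condition was replicated. The 5 further probes of LINC00472 had the same signs.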

How the results depend on the processing

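The limma fit paired the arrays by cell line. Beyond it, no paired analysis was possible by replicate number because each condition had only replicate 1. Normexp background correction left 5 LINC probes higher and 8 lower in HN4/DDP, with 14 and 7 for HN30/DDP, and 2 higher and 2 lower in both lines. A pseudocount of 16 gave 15 and 9, 47 and 13, and 3 higher in both. Dim signals at their bound gave 20 higher for HN4/DDP, 63 and 13 for HN30/DDP, and 7 higher in both. Detection on both arrays gave 8 and 7, 44 and 9, and 4 higher and 1 lower in both. A threshold of 1 gave 106 and 88, 231 and 43, and 54 and 16. The probe with the highest mean per name gave 12 and 9, 49 and 7, and 3 and 1. Median centring gave 66 higher in HN30/DDP. The remaining counts, with quantile normalization and the deposited log2 values among them, stayed within 1.5 times. The LINC median in HN30/DDP was -0.14 with quantile normalization, -0.14 in the deposited values, -0.26 with median centring and 0.01 with normexp. In HN4/DDP it was -0.08, -0.08, -0.04 and -0.07 in the same order. The cause was not tested.

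By the flag for a positive and significant signal, 69.8%, 72.5%, 69.2% and 76.7% of LINC probes were detected on HN4, HN4/DDP, HN30 and HN30/DDP, and 47.5%, 49.0%, 44.9% and 56.3% of names had a detected probe. A 50 kb window gave 58.0% of LINC probes and neighbours in the same direction in HN30/DDP, beside 53.4% for coding probes. Probe agreement over detected probes was 61.9% for HN4/DDP, 58.1% for HN30/DDP, and over names with exactly 2 probes, an alternative chosen after seeing the data, 63.9% and 55.4%. No value past the threshold among the 131 named probes changed sign under these alternatives. The size of the named differences was less steady. With normexp 112 moved past a set tolerance and 150 did not, and with median centring 88 and 174. A pseudocount moved 68, the deposited values 52, quantile normalization 49 and the bounds for dim signals 30. Detection on the dimmer array limits many of these calls, and with 1 array per condition no alternative stands in for replicates.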
